A study of Mus musculus with 12 samples.

Results

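The genes described here make, carry, store and export cholesterol and fatty acids in mouse CD8 T cells, the killer lymphocytes, that had been cultured from C57BL/6 spleen and harvested at day 7. They were chosen by gene symbol from a list of 39, with the condition that a gene had at least 120 counts summed over the 12 libraries. All 39 met it, of 46078 genes in the tables, and all 39 were among the 14009 genes tested. By role they fall into 18 genes of sterol synthesis, 6 of SREBP control and sterol carriage, 10 of fatty acid synthesis and 5 of efflux, LXR and esterification. The last class is called efflux for short, though of its genes Abca1 and Abcg1 alone encode exporters. Every culture held the cytokines IL-2 and IL-15, which sustain activated CD8 T cells, so no group was free of them. The groups were IL-2 + IL-15 alone, the same with all-trans retinoic acid (RA), a vitamin A derivative that binds nuclear receptors, the same with transforming growth factor β (TGFβ), and the same with both (TGFβ + RA). Each group had 3 samples. The series title gives the aim as making resident memory CD8 T cells in vitro. The labels call the samples biological replicates without saying whether a number stands for 1 animal, so a p-value reflects only how these samples scatter, which may be partly technical.

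As background, cells make cholesterol from acetyl-CoA through mevalonate, squalene and lanosterol, and make fatty acids from the same acetyl-CoA through malonyl-CoA. Both routes are switched on by the transcription factors SREBP2 and SREBP1, which the carrier SCAP escorts out of the endoplasmic reticulum for cleavage when sterols are scarce and which INSIG proteins hold back when sterols are plentiful. The LXR receptors sense oxidised sterols and switch on the exporters ABCA1 and ABCG1 and the ubiquitin ligase MYLIP, which limits lipoprotein uptake. Activated T cells raise sterol and fatty acid synthesis to build membranes for division.

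Promoter sequences are shown because SREBP acts on its targets together with the factor NF-Y, and a reader can see in them where the letters of the usual sites lie. A RefSeq table (build GRCm38.p6) held promoter windows, 250 bases before to 50 after a start, for 31 of the 39 genes. Fdft1, Scd2, Sqle, Fdps, Fads1, Stard4, Abcg1 and Scd1 had none of use here. The stretches below are the 250 bases upstream of the start, 5′ to 3′ on the strand of the gene. They cover the 3 sterol synthesis genes with the largest falls in TGFβ + RA cultures, the feedback gene Insig1, the fatty acid synthase Fasn and the exporter Abca1. Capitals mark the NF-Y box (CCAAT, or ATTGG on the other strand), the core of an SREBP site (TCACNCCAC, either strand) and the E-box (CACGTG), which SREBP1 can also bind.
Hmgcs1 (chr13:119690101-119690350, plus strand): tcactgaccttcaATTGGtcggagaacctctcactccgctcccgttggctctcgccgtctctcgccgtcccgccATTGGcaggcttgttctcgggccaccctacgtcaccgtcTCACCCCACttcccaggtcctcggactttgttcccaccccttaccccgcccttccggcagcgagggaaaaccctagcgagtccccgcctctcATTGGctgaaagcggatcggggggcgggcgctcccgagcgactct
Cyp51 (chr5:4104698-4104947, minus strand): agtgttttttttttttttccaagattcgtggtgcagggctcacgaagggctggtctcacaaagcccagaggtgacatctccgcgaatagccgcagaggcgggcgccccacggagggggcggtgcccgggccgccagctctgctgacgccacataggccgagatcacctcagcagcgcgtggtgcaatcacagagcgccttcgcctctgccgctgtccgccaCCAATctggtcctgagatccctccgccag
Idi1 (chr13:8885356-8885605, plus strand): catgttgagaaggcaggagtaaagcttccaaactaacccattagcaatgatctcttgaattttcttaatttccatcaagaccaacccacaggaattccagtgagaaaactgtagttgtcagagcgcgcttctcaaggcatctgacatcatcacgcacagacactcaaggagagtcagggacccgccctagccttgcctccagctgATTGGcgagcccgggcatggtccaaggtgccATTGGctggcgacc
Insig1 (chr5:28071162-28071411, plus strand): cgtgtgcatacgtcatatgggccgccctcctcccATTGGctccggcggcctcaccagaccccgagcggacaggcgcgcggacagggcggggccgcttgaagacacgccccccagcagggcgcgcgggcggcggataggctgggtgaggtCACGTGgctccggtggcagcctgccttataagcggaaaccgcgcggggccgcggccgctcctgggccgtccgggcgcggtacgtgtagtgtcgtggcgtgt
Fasn (chr11:120824548-120824797, minus strand): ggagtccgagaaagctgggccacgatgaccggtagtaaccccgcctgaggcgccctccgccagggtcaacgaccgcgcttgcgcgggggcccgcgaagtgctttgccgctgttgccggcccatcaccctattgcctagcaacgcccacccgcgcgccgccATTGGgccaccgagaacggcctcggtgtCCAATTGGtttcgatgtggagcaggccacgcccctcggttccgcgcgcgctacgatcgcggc
Abca1 (chr4:53159896-53160145, minus strand): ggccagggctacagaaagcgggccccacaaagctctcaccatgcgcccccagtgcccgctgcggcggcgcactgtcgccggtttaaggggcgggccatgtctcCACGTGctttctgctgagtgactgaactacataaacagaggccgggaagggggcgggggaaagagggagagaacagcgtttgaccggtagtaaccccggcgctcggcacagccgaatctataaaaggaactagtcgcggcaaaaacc

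In Hmgcs1 the SREBP core began 137 bases upstream of the start, between NF-Y boxes at 176 and 45. In Fasn a CCAAT and an ATTGG overlapped by 2 bases, and in Abca1 the capitals are an E-box at 147, with no NF-Y box in the window. Over the whole windows, an NF-Y box was present in 24 of the 31 genes (77.4%), beside 41.1% of 27025 genes in the table. A gene with several windows was counted once, if any of them held the letters. By class the counts were 14 of 15 for sterol synthesis, 4 of 5 for SREBP control, 4 of 7 for fatty acid synthesis and 2 of 4 for efflux. The E-box was in 7 of 31 (22.6%, beside 8.1%), and the SREBP core in 1, Hmgcs1 (3.2%, beside 1.4%). These counts describe letters in a window and are not evidence of binding. No test was made of them.

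Libraries held 18300206 to 33477037 counts assigned to genes. Values are CPM (counts scaled by TMM to equal library sizes) for 1 gene across libraries, and RPKM (the same per unit of exon length) only where genes are set beside each other. Log2 fold changes are given ± SE, and a gene was called where the quasi-likelihood test of edgeR gave an adjusted p under 0.05 (Benjamini-Hochberg, over all genes tested). RA replicate 3 stood apart from the other RA libraries, with chi-square values (divided by the degrees of freedom, across genes) of 24.0 and 20.4 against 7.86 between the other pair, so results resting on it are also given without it. The 8 CD8 T cell markers were detected in every group and summed to 5395 to 9024 CPM. Markers of other cells were low but moved between groups. Of the 9 myeloid markers, Itgam had 38.3 to 48.9 CPM in IL-2 + IL-15 and 3.07 to 4.71 in TGFβ + RA, and 68.7% of its exon bases also lie in another gene of the same strand. The other 8 summed to at most 1.44 CPM in every library but TGFβ + RA replicate 3, which had 22.3, mostly from Lyz2, S100a8 and S100a9. Without that library 6 of the 39 genes rose and 27 fell in TGFβ + RA against IL-2 + IL-15, beside 27.6% and 29.4% of all genes. The 4 NK markers summed to 113 to 185 CPM in IL-2 + IL-15 and 22.7 to 37.4 in TGFβ + RA. The 3 CD4 T cell markers summed to 66.8 to 74.6 and 26.1 to 31.8, and the 5 B cell markers to 12.9 to 16.3 and 21.8 to 25.9. The 6 markers of adipocytes, hepatocytes and stroma stayed at or under 2.46 in all libraries. The part of other cells in the results was not tested, and in bulk RNA fewer cells of a type and less RNA per cell cannot be told apart.

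**Figure D1:**
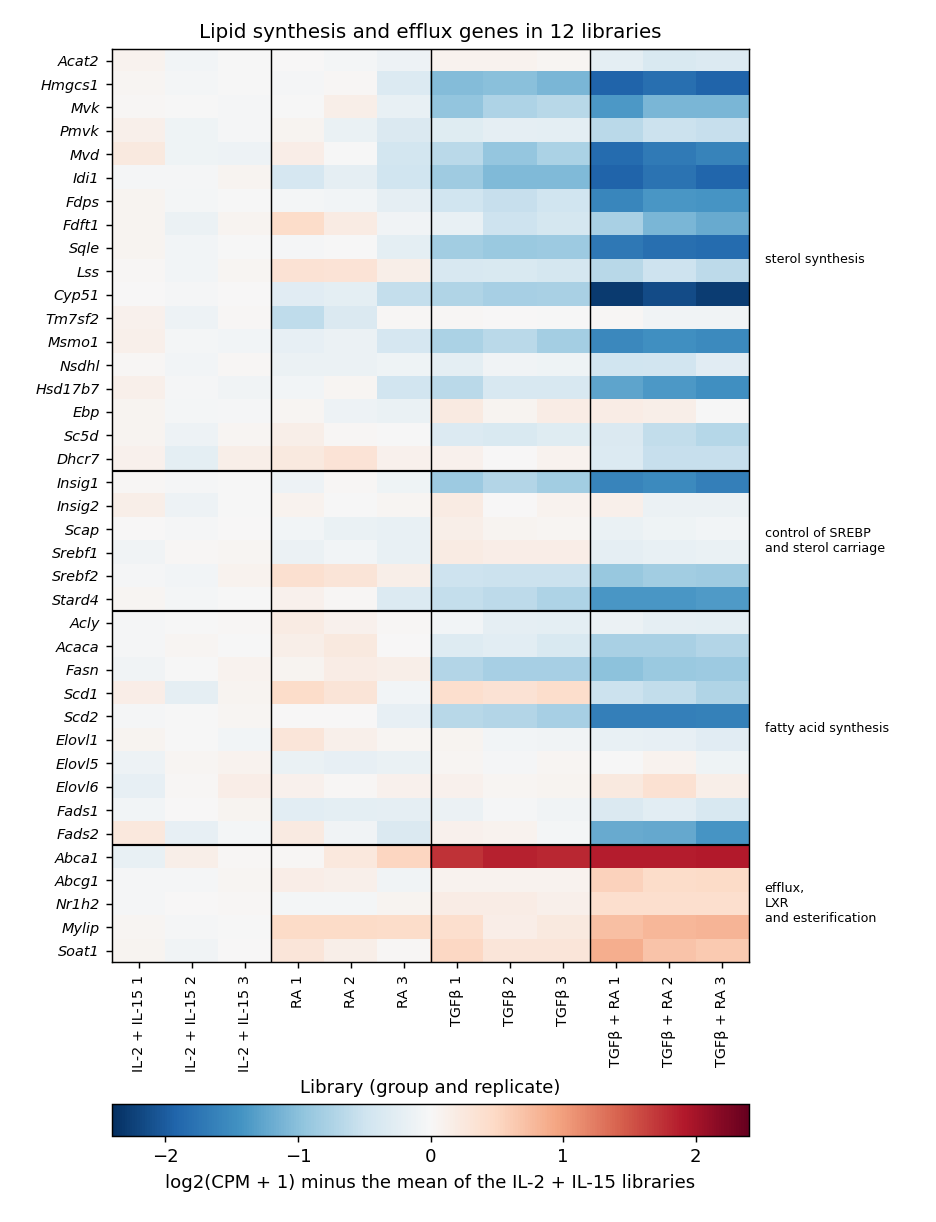
Each row is 1 of the 39 genes, grouped by class, and each column 1 of the 12 libraries. The colour is log2(CPM + 1) minus the mean of the 3 IL-2 + IL-15 libraries. Most sterol rows are pale in RA, blue in TGFβ and darkest in TGFβ + RA, while the row of Abca1 is red in the 6 libraries with TGFβ.

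The classes moved apart when TGFβ and RA were combined. In TGFβ + RA against IL-2 + IL-15, 28 of the 39 genes fell and 6 rose, where 32.4% of all genes tested fell and 30.8% rose. The fallers were 16 of 18 sterol synthesis genes, 4 of 6 genes of SREBP control and carriage, 8 of 10 fatty acid genes and 0 of 5 efflux genes, and the risers were all 5 efflux genes and Elovl6. The median log2 fold change was -1.16 for sterol synthesis, -0.53 for SREBP control, -0.48 for fatty acid synthesis and 0.74 for efflux, beside 0.00 for all genes tested. Summed over its 18 genes, sterol synthesis held 1015 to 1127 CPM in the IL-2 + IL-15 libraries and 492 to 525 in the TGFβ + RA libraries. The sum over the 5 efflux, LXR and esterification genes went the other way, from 327 to 339 up to 513 to 547 CPM. Within it the mean of Soat1, which stores cholesterol as esters, went from 97.5 to 163 CPM. The exporters went from 13.8 to 53.5 (Abca1) and 82.9 to 116 (Abcg1), Nr1h2 from 115 to 153 and Mylip from 23.2 to 40.4.

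TGFβ alone gave changes in the same classes. Against IL-2 + IL-15, 20 of the 39 genes fell and 6 rose, beside 22.4% and 20.7% of all genes. Of these, 13 of 18 sterol genes fell and 0 rose (median -0.45), 4 of 10 fatty acid genes fell and 1 rose (median -0.06), and 4 of 5 efflux genes rose (median 0.28). The sterol sum lay at 754 to 779 CPM in the 3 TGFβ libraries, between the other groups and with no overlap. Calls for Pmvk, Fdft1 and Acly were marginal, with adjusted p of 0.0432, 0.0373 and 0.0214. The call of Pmvk ended without IL-2 + IL-15 replicate 1 (0.162) or 3 (0.0674), RA replicate 2 (0.0528), TGFβ replicate 1, 2 or 3 (0.118, 0.0841 and 0.0841) or TGFβ + RA replicate 2 or 3 (0.0535 and 0.0561). That of Fdft1 ended without TGFβ replicate 2 or 3 (0.139 and 0.107) or on leaving out IL-2 + IL-15 replicate 1 or 3 (0.0989 and 0.102). That of Acly ended without IL-2 + IL-15 replicate 3 (0.0665) or TGFβ replicate 2 or 3 (0.086 and 0.0952).

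RA alone gave small changes. Against IL-2 + IL-15, 3 of 39 rose (Lss, Srebf2 and Mylip) and 5 fell (Cyp51, Idi1, Msmo1, Elovl5 and Fads1), beside 12.4% and 14.3% of all genes, and no called change exceeded 0.47 in size. The median over the 39 was -0.06. RA and IL-2 + IL-15 samples of the same number deviated together. With the replicate number as a block 6 rose and 5 fell, beside 13.3% and 15.4% of all genes there. The added risers were Elovl1, Abca1 and Soat1. Without RA replicate 3, in which most sterol genes were lower than in the other RA libraries, 11 rose and 4 fell, beside 16.1% and 16.3% of all genes there. That set added Fdft1, Dhcr7, Acly, Acaca, Scd1, Elovl1, Abcg1 and Soat1 to the risers and Tm7sf2 to the fallers, and Msmo1 and Elovl5 were no longer called (adjusted p = 0.0741 and 0.0554). Without RA replicate 1, 5 rose, beside 10.3% of all genes there. They included Fasn (adjusted p = 0.0494) and Abca1 (0.00813), and Abca1 was also called without IL-2 + IL-15 replicate 2 (0.0409). The call of Msmo1 also ended without IL-2 + IL-15 replicate 1 (0.108) or with only the 6 libraries compared (0.0787).

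**Figure D2:**
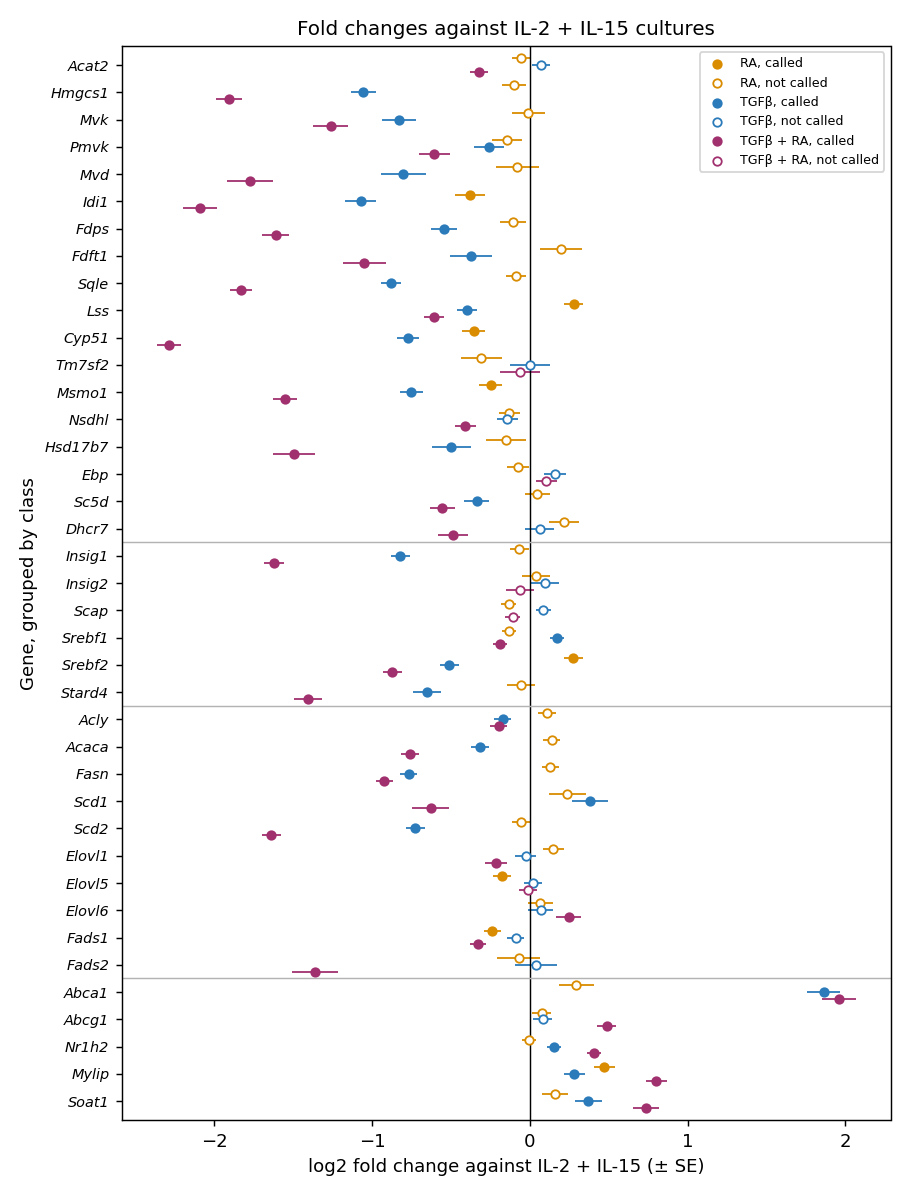
Log2 fold changes against IL-2 + IL-15 (x axis, ± SE) for the 39 genes (y axis, grouped by class) in RA, TGFβ and TGFβ + RA, with 3 libraries a group. Filled points were called and open points were not. In TGFβ + RA the points run from -2.29 for Cyp51 to 1.96 for Abca1.

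RA added to TGFβ changed most of the genes further. In TGFβ + RA against TGFβ, 28 of the 39 genes fell and 4 rose, beside 22.7% and 20.3% of all genes. The fallers were 16 sterol genes, 5 genes of SREBP control and 7 fatty acid genes, and the risers were the 4 efflux genes other than Abca1. Of the fallers, Sc5d lost its call without IL-2 + IL-15 replicate 3 (adjusted p = 0.0508) or TGFβ replicate 1, 2 or 3 (0.0858, 0.0621 and 0.126). The same held without TGFβ + RA replicate 2 or 3 (0.137 and 0.19). Elovl1 lost its call without TGFβ replicate 1 or 2 (0.16 and 0.0529) or TGFβ + RA replicate 1, 2 or 3 (0.053, 0.0734 and 0.128). In TGFβ + RA against RA, 26 fell and 7 rose, beside 30.8% and 29.4%. Here the risers were the 5 efflux genes, Ebp and Elovl5. The rise of Ebp was 0.18 ± 0.07 and lost its call without RA replicate 2 or 3 (adjusted p = 0.154 and 0.16), IL-2 + IL-15 replicate 1 or 2 (0.0557 and 0.0654) or TGFβ + RA replicate 1 or 2 (0.125 and 0.109). It also lost its call with only the 6 libraries compared (0.0503). The rise of Elovl5, 0.17 ± 0.06, lost it without RA replicate 1, 2 or 3 (0.0648, 0.106 and 0.05) or TGFβ + RA replicate 1 or 2 (0.0514 and 0.118). The comparisons share groups, so their counts are not independent of each other.

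The interaction tests whether the fold change that RA gave with TGFβ present differed from the one it gave without. It was called below 0 for 22 of the 39 genes and above 0 for 2, beside 12.3% and 6.95% of all genes. Below 0 were 12 of 18 sterol genes (median -0.60), 4 of 6 genes of SREBP control (-0.43) and 6 of 10 fatty acid genes (-0.31), while the 2 above 0 were Abcg1 and Nr1h2. Without RA replicate 3 the counts were 23 and 3, beside 17.5% and 11.6% of all genes. Lower values mean that TGFβ + RA cultures had less of the transcript than the sum of the single log2 changes gives.

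**Figure D3:**
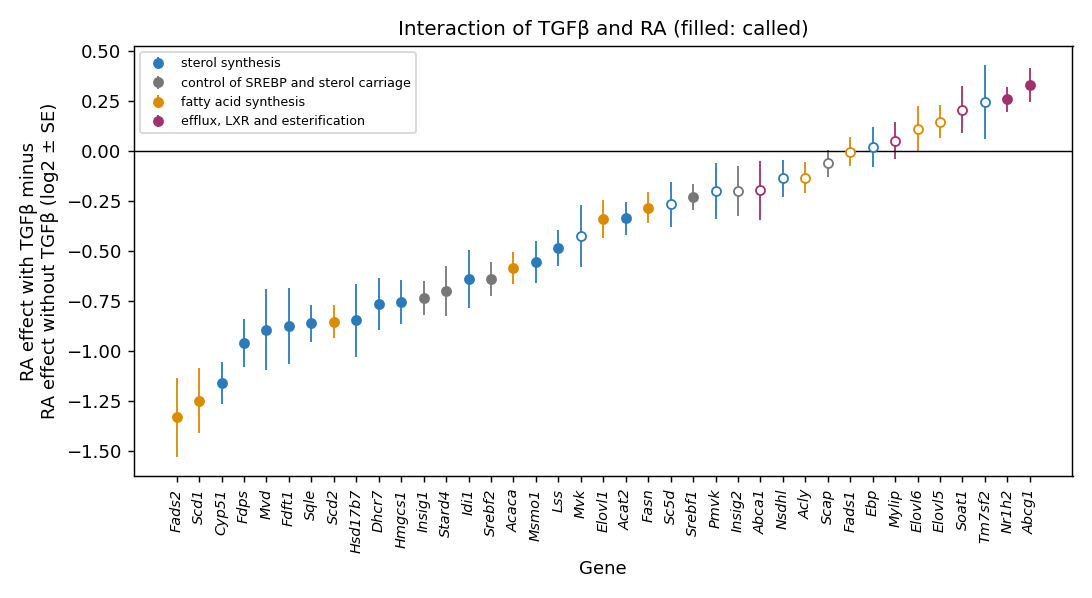
Interaction log2 values (y axis, ± SE) for the 39 genes (x axis), sorted, coloured by class, filled where called. Fads2 (-1.33), Scd1 (-1.25) and Cyp51 (-1.16) lie lowest, and Abcg1 (0.33) and Nr1h2 (0.26) are the called genes above 0.

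Among the early steps of sterol synthesis, Hmgcs1, the enzyme that makes HMG-CoA, showed the largest fall with TGFβ + RA up to the mevalonate kinases. Its CPM were 207, 194 and 200 in IL-2 + IL-15, 197, 204 and 159 with RA, 97.2, 99.1 and 92.5 with TGFβ and 51.8, 56.1 and 51.8 with both. The 3 libraries of each TGFβ group lay below all of both groups without TGFβ, and RA replicate 3 was the lowest of its group. The fold change was -1.05 ± 0.08 in TGFβ (adjusted p = 2.26e-07) and -1.91 ± 0.08 in TGFβ + RA (3.22e-10), with an interaction of -0.75 ± 0.11 (0.00035). Acat2, which condenses acetyl-CoA to acetoacetyl-CoA just before, fell by 0.32 in TGFβ + RA and was not called in TGFβ, at 45.1 ± 0.81 CPM against 42.9 ± 2.36 (SD, n = 3). For Acat2 39.1% of the 50-base stretches of its exons also occur in Acat3 or Tcp1, so its counts depend on how such reads were assigned. The mevalonate kinase Mvk fell by 1.26 and the phosphomevalonate kinase Pmvk by 0.61 in TGFβ + RA, and neither had a called interaction, although that of Mvk was called without RA replicate 3 (adjusted p = 0.0165) or TGFβ replicate 1 (0.0437).

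The isoprenoid steps followed. Mvd, which decarboxylates mevalonate pyrophosphate, fell from 62.9, 49.8 and 49.0 CPM in IL-2 + IL-15 to 14.2, 15.9 and 16.8 in TGFβ + RA (-1.78 ± 0.15, adjusted p = 2.09e-07). Its IL-2 + IL-15 libraries differed more among themselves than those of Hmgcs1, but none came near the TGFβ + RA values. Idi1, the isomerase that makes the reactive isoprene unit, had 17.4, 17.5 and 18.6 CPM in IL-2 + IL-15, 13.3, 15.3 and 12.5 with RA, 9.38, 8.02 and 8.05 with TGFβ and 3.97, 4.52 and 4.01 with both. The groups did not overlap. Idi1 fell in all 3, and its log2 change was -0.38 with RA, -1.07 with TGFβ and -2.09 with both. Fdps, the farnesyl pyrophosphate synthase, fell by 0.54 in TGFβ and 1.61 in TGFβ + RA, with an interaction of -0.96 ± 0.12. For Fdps 26.2% of the 50-base stretches of its exons, and for Idi1 25.3%, also occur in other annotated genes, among them predicted gene models, so their counts depend on how such reads were assigned.

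At the squalene steps, Sqle, the squalene epoxidase that is a rate-limiting enzyme of the pathway, went from 95.1, 86.1 and 90.2 CPM in IL-2 + IL-15 to 50.3, 48.2 and 48.9 in TGFβ and 26.8, 25.1 and 24.5 in TGFβ + RA. The 3 groups were apart, and the RA libraries, at 88.5, 89.9 and 76.3, overlapped IL-2 + IL-15. The changes were -0.88 ± 0.06 in TGFβ and -1.83 ± 0.07 in TGFβ + RA, with an interaction of -0.86 ± 0.09 (adjusted p = 2.8e-05). Fdft1, the squalene synthase, fell by 1.05 in TGFβ + RA, and 26.5% of its stretches are shared, mainly with the neighbouring gene Ctsb. Lss, which closes squalene epoxide into lanosterol, was the sterol gene called higher in RA (0.28 ± 0.06, from 76.5 ± 3.22 to 92.6 ± 7.27 CPM). It fell by 0.40 in TGFβ and 0.61 in TGFβ + RA. Against TGFβ its fall of 0.21 in TGFβ + RA lost its call without TGFβ replicate 2 (adjusted p = 0.0592) or TGFβ + RA replicate 1 or 3 (0.0742 and 0.0652).

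From lanosterol on, the fall was uneven. Cyp51, the lanosterol demethylase, had the largest fall of the 39 genes in TGFβ + RA. Its CPM were 115, 112 and 116 in IL-2 + IL-15, 94.0, 96.8 and 76.9 with RA, 69.1, 65.7 and 65.9 with TGFβ, and 22.5, 24.9 and 22.7 with both. The groups did not overlap at any point. The log2 changes were -0.36 ± 0.07 with RA, -0.77 ± 0.07 with TGFβ and -2.29 ± 0.08 with both, and the interaction was -1.16 ± 0.11 (adjusted p = 8.13e-06). Msmo1, the methylsterol oxidase that acts soon after, fell by 0.75 in TGFβ and 1.55 in TGFβ + RA. Hsd17b7, a ketosteroid reductase of the same demethylation, fell as well (-0.50 and -1.496). Nsdhl, which works between them, fell by 0.41 in TGFβ + RA and was not called in TGFβ.

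Among the remaining steps, Ebp and Tm7sf2 were not called in TGFβ or TGFβ + RA with all libraries and no block. Ebp, the sterol isomerase, had 50.5, 46.7 and 47.4 CPM in IL-2 + IL-15 and 54.6, 53.3 and 47.8 in TGFβ + RA, which overlapped. Against IL-2 + IL-15 it was called higher in TGFβ with the replicate block (adjusted p = 0.0296), with only the 6 libraries compared (0.0381) and on leaving out RA replicate 1 (0.0499) or TGFβ replicate 2 (0.0498). Tm7sf2, a sterol reductase, was at 15.5 ± 1.32 CPM in IL-2 + IL-15 and 14.9 ± 0.69 in TGFβ + RA. Without RA replicate 3 it was called higher in TGFβ + RA against RA (0.42, adjusted p = 0.00311). The interaction of Tm7sf2 was then called above 0 (0.42, adjusted p = 0.0337). Sc5d, a sterol desaturase, fell by 0.34 in TGFβ and 0.56 in TGFβ + RA. Dhcr7, the reductase that completes cholesterol, was not called in TGFβ (114 ± 3.91 against 109 ± 14.7 CPM) and fell by 0.49 in TGFβ + RA, with an interaction of -0.77 ± 0.13. Per exon length, the sterol genes with the highest levels in IL-2 + IL-15 were Hmgcs1 (43.5 RPKM), Mvd (29.0) and Cyp51 (25.9). In TGFβ + RA these had 11.6, 8.43 and 5.29 RPKM, and the highest level was that of Ebp at 22.5 RPKM.

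**Figure D4:**
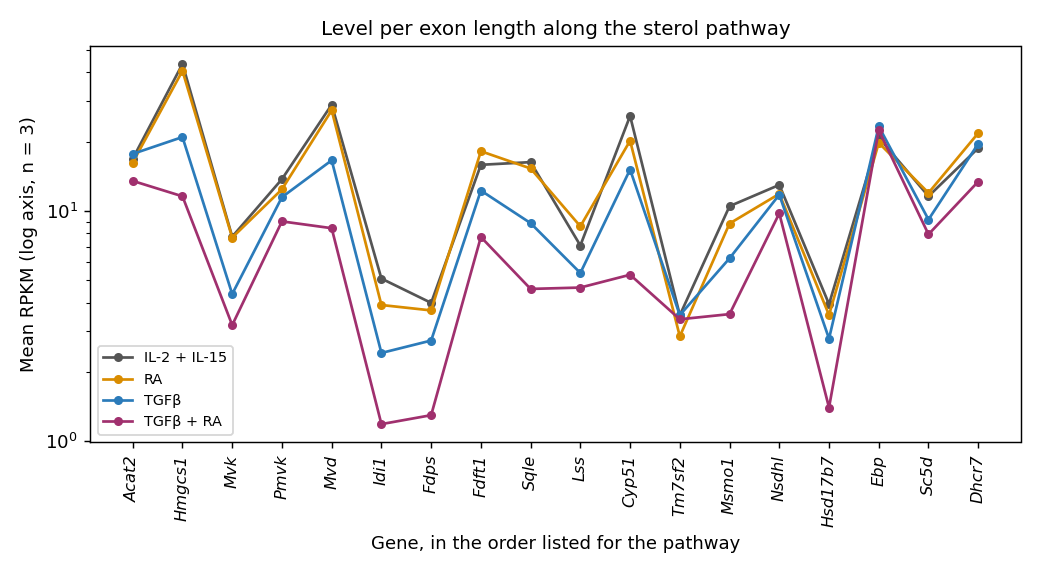
Mean RPKM per group (y axis, log scale, 3 libraries a group, no error drawn) of the 18 sterol synthesis genes (x axis), in the order of the list. The 4 lines meet at Ebp (19.8 to 23.3 RPKM) and lie far apart at Cyp51, from 25.9 in IL-2 + IL-15 to 5.29 in TGFβ + RA.

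Among the genes that control the pathway, the transcripts of the SREBP factors moved in opposite directions in TGFβ, and both fell in TGFβ + RA. Srebf2, which encodes the factor for sterol genes, had 435, 424 and 469 CPM in IL-2 + IL-15, 575, 547 and 486 with RA, 314, 309 and 309.9 with TGFβ and 235, 247 and 244 with both. Every RA library lay above every IL-2 + IL-15 library, and the TGFβ + RA libraries were lowest. It rose by 0.28 ± 0.06 in RA (adjusted p = 0.00376) and fell by 0.51 in TGFβ and 0.87 in TGFβ + RA, with an interaction of -0.64 ± 0.09. Srebf1, which encodes the factor for fatty acid genes, rose by 0.17 ± 0.05 in TGFβ and fell by 0.19 ± 0.05 in TGFβ + RA. Against TGFβ, each of them fell by 0.36 in TGFβ + RA. For Srebf1 the interaction of -0.23 ± 0.07 was marginal (adjusted p = 0.0278). Its call ended without the filter on low counts (0.0622), RA replicate 2 (0.0508), TGFβ replicate 1, 2 or 3 (0.0679, 0.0501 and 0.0535) or TGFβ + RA replicate 1 or 2 (0.0665 and 0.056). Gene counts do not separate its promoters, so its isoforms cannot be told apart here.

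Insig1, the retention protein whose own transcript is a classical SREBP target, had 66.1, 63.3 and 63.9 CPM in IL-2 + IL-15, 58.7, 65.5 and 60.1 with RA, 34.5, 39.1 and 35.8 with TGFβ and 20.9, 21.8 and 20.0 with both. RA overlapped IL-2 + IL-15 and the other groups were apart. The changes were -0.82 ± 0.06 in TGFβ and -1.62 ± 0.06 in TGFβ + RA. Its relative Insig2, with group means of 23.6 to 26.2 CPM, was not called in any of the comparisons with all libraries and no block. It was called lower in TGFβ + RA than in TGFβ with the replicate block (adjusted p = 0.0476) and on leaving out TGFβ + RA replicate 1 (0.0352). Scap, the escort, was called in TGFβ + RA against TGFβ, where it fell by 0.19, and in no other comparison by edgeR with all libraries. The DESeq2 Wald test also called it lower in RA (adjusted p = 0.0436). With only the 6 libraries compared, edgeR called it lower in TGFβ + RA (0.046). Without RA replicate 1 it was also called lower in RA (0.0361) and in TGFβ + RA (0.0348), the latter also without RA replicate 3 (0.0342). Stard4, a soluble sterol carrier, fell by 0.65 in TGFβ and 1.41 in TGFβ + RA.

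In fatty acid synthesis Acly, Acaca and Fasn, which act on the way to palmitate, fell in TGFβ and in TGFβ + RA. Acly, which makes cytosolic acetyl-CoA from citrate, fell by 0.17 in TGFβ and 0.20 in TGFβ + RA. Acaca, the acetyl-CoA carboxylase, fell by 0.31 and 0.76, and 30.4% of its stretches also occur in other genes. Fasn, the fatty acid synthase, had 361, 380 and 406 CPM in IL-2 + IL-15, 399.8, 434 and 420 with RA, 234, 219.9 and 219.6 with TGFβ and 192, 205 and 208 with both. All 6 libraries with TGFβ lay below all 6 without. Fasn fell by 0.77 in TGFβ and 0.92 in TGFβ + RA. The further fall of 0.16 in TGFβ + RA against TGFβ lost its call without TGFβ replicate 1, 2 or 3 (adjusted p = 0.143, 0.0566 and 0.0573) or TGFβ + RA replicate 1 or 2 (0.143 and 0.0676).

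The stearoyl-CoA desaturases, which make oleate-type fats, differed from each other in TGFβ. Scd2 had the highest level per exon length of the 39 genes in IL-2 + IL-15 (241 RPKM). Its CPM were 1284, 1311 and 1352 in IL-2 + IL-15, 1316, 1323 and 1154 with RA, 825, 805 and 756 with TGFβ and 420.3, 422 and 426 with both. The TGFβ + RA libraries lay within a few CPM of each other and below all others. Scd2 fell by 0.73 ± 0.06 in TGFβ and 1.64 ± 0.06 in TGFβ + RA. Scd1 had 108, 82.9 and 101.05 CPM in IL-2 + IL-15, 132, 121 and 92.3 with RA, 128, 123 and 129.7 with TGFβ and 67.2, 63.9 and 58.2 with both. It was higher in TGFβ (0.38 ± 0.11, adjusted p = 0.0161), a call that ended on leaving out IL-2 + IL-15 replicate 2 (0.0752), and lower in TGFβ + RA (-0.63 ± 0.12). The interaction was -1.25 ± 0.16 for Scd1 and -0.85 ± 0.08 for Scd2. The genes share 4.6% and 4.0% of their stretches with other genes, chiefly each other and their relatives Scd3 and Scd4.

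Fads2, the desaturase that starts the long polyunsaturated fats, was low where both agents were present. Its CPM were 35.8, 26.0 and 29.2 in IL-2 + IL-15, 35.04, 28.3 and 23.3 with RA, 32.6, 32.0 and 29.0 with TGFβ and 12.5, 12.3 and 10.7 with both. The first 3 groups overlapped and the last lay below them all. The fall was 1.36 against IL-2 + IL-15, 1.40 against TGFβ and 1.29 against RA, and the interaction of -1.33 ± 0.20 (adjusted p = 0.00039) was the lowest of the 39 genes. Fads1, which acts later on the same fats, fell by 0.24 in RA and 0.33 in TGFβ + RA, with group means of 66.5 to 83.7 CPM. Of the elongases, Elovl1 fell by 0.21 in TGFβ + RA (adjusted p = 0.0129, and 0.0578 without TGFβ + RA replicate 3). Elovl6, which extends palmitate, rose by 0.24 ± 0.08 there, a call that ended on leaving out IL-2 + IL-15 replicate 1 (0.0796) or TGFβ + RA replicate 2 (0.0835). Elovl5, with the highest RPKM of the elongases (50.3 in IL-2 + IL-15 and 49.9 in TGFβ + RA), was called lower in RA alone by 0.18, a marginal call (adjusted p = 0.0379). It ended on leaving out IL-2 + IL-15 replicate 2 or 3 (0.138 and 0.156), RA replicate 1, 2 or 3 (0.0843, 0.133 and 0.0554), TGFβ replicate 1 or 3 (0.0507 and 0.0534) or TGFβ + RA replicate 1 (0.0501). It also ended with only the 6 libraries compared (0.114).

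The efflux, LXR and esterification class rose in TGFβ + RA, with the largest log2 change in Abca1, the exporter that loads cholesterol onto apolipoprotein. Its CPM were 11.98, 15.3 and 14.0 in IL-2 + IL-15, 14.0, 16.5 and 20.1 with RA, 47.6, 51.9 and 50.5 with TGFβ and 53.5, 53.1 and 53.9 with both. The libraries with TGFβ lay far above those without. Abca1 rose by 1.86 ± 0.11 in TGFβ (adjusted p = 2.02e-08) and 1.96 ± 0.11 in TGFβ + RA. The difference between the latter groups was 0.10 ± 0.10 (0.454), and the interaction was -0.20 ± 0.15 (0.39), so neither was called. In RA alone the change was 0.29 ± 0.11 (0.0706), which the replicate block moved to 0.037.

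The other genes of this class rose in TGFβ + RA. Abcg1, the exporter to lipoprotein particles, was at 82.9 ± 2.74 CPM in IL-2 + IL-15, 87.3 ± 7.73 with RA, 87.8 ± 0.12 with TGFβ and 116 ± 4.95 with both. It rose by 0.49 ± 0.06 in TGFβ + RA, with an interaction of 0.33 ± 0.08 (adjusted p = 0.0149). Nr1h2, the gene of the LXRβ receptor, rose by 0.15 ± 0.04 in TGFβ and 0.41 ± 0.04 in TGFβ + RA, with an interaction of 0.26 ± 0.06. Mylip, the ligase that degrades the lipoprotein receptor, had 24.0, 22.6 and 22.9 CPM in IL-2 + IL-15, 32.3, 32.3 and 31.7 with RA, 31.1, 25.9 and 27.4 with TGFβ and 39.1, 40.7 and 41.3 with both. Every treated library lay above every IL-2 + IL-15 library. Mylip rose by 0.47 with RA, 0.28 with TGFβ and 0.80 with both, and its interaction was not called. Soat1, which esterifies cholesterol for storage, rose by 0.37 in TGFβ and 0.74 in TGFβ + RA, from 97.5 ± 5.09 to 126 ± 10.6 and 163 ± 15.4 CPM.

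**Figure D5:**
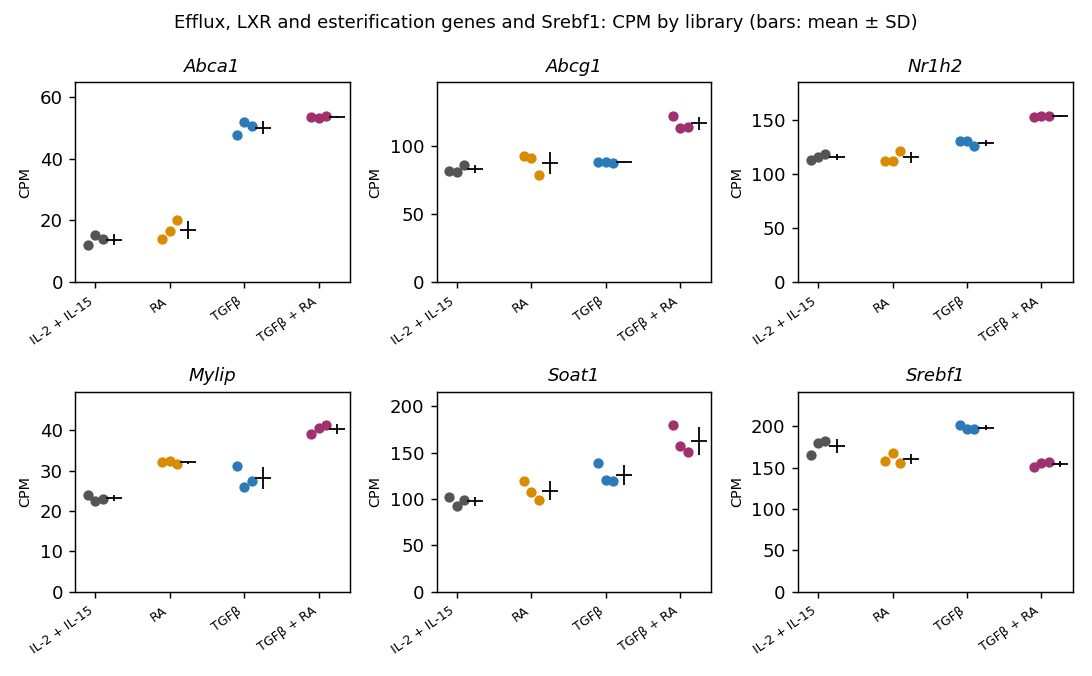
CPM (y axis, from 0) in each library for the 5 efflux, LXR and esterification genes and Srebf1, by group (x axis), with the mean ± SD of 3 libraries beside the points. Abca1 is at 47.6 to 53.9 CPM in the 6 libraries with TGFβ and at 11.98 to 20.1 in the other 6, and Abcg1 is highest in TGFβ + RA.

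A further 40 genes of the same pathways were counted as lists, of which 36 were tested. In TGFβ + RA against IL-2 + IL-15, 22 fell and 7 rose, beside 32.4% and 30.8% of all genes. In TGFβ 15 fell and 8 rose, beside 22.4% and 20.7%, and in RA 10 fell and 5 rose, beside 14.3% and 12.4%. Of the 4 tested sterol and isoprenoid genes 3 fell in TGFβ + RA. Of the 8 genes of SREBP control and sterol traffic, 6 fell and 2 rose in TGFβ + RA. Tmem97, a binding partner of the sterol transporter NPC1, fell by 0.73 in TGFβ and 1.61 in TGFβ + RA. Mbtps1, the protease that makes the first cut in SREBP, rose by 0.73 in TGFβ and 0.85 in TGFβ + RA, from 124, 141 and 138 CPM in IL-2 + IL-15 to 241, 244 and 243. Npc1, which moves cholesterol out of lysosomes, rose by 0.57 in TGFβ and fell by 1.15 in TGFβ + RA against TGFβ. Of the 8 tested LXR, efflux and esterification genes 3 rose and 2 fell in TGFβ + RA, shares near those of all genes. Soat2, the relative of Soat1, rose by 1.13 ± 0.11, from 49.0, 52.5 and 52.8 CPM to 107.5, 118 and 111. It was not called in TGFβ or in RA, and its interaction was 0.83 ± 0.16.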

How the data were processed

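RNA of 12 mouse CD8 T cell cultures was sequenced from stranded mRNA libraries, per the labels' protocols. Reads were aligned with STAR and counted with featureCounts on GRCm38, per the submitters' processing notes. Versions, strand setting and the handling of multi-mapping reads are not given in the sources used here. Each deposited file lists whole-number counts per gene, left unnormalized by the authors. Groups follow the treatment in the labels, with 3 samples each. The members and lists were chosen with earlier results of these data known. All 39 members are named, and from the other lists up to 4 called genes per list and comparison, by smallest adjusted p. A gene that this rule takes is not reported here.

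Genes were filtered with filterByExpr (minimum count 10) of edgeR 4.0.16 in R 4.3.3 and scaled by TMM. A quasi-likelihood fit took all 12 libraries, with 1 mean for each group (8 residual degrees of freedom), with 5 contrasts and the interaction. Each SE was derived from the log2 fold change and its F statistic, and can be too small at low counts. Exon lengths and symbols came from GENCODE M21. In simulated data for TGFβ against IL-2 + IL-15 (13775 genes), 100% of 2-fold and 94% of 1.5-fold changes were recovered, with 4.4% false calls. The simulated libraries were drawn independently and only 200 genes changed, where 6034 genes were called in the real comparison. These rates therefore need not hold for the real data. Deviations of same-numbered RA and IL-2 + IL-15 samples correlated at 0.341, 0.13 and 0.271 over genes, so these numbers pair by the rule used (each over 0.1), although the labels give no shared origin. Alternatives were DESeq2 size factors, the Wald test of DESeq2 1.42.0, no filter, the replicate block, glmTreat at 1.5-fold, the 6 libraries compared, each library left out, and CPM without TMM.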

Additional observations from a re-analysis of the deposited data

Results flagged for a closer look

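For the genes below, the fold change that RA gave with TGFβ present differed from the one it gave without, by edgeR's interaction test at an adjusted p under 0.05. Each value is the interaction on the log2 scale, below 0 where TGFβ + RA cultures held less transcript than the sum of the single changes. In sterol synthesis the values were -0.34 for Acat2, -0.75 for Hmgcs1, -0.89 for Mvd, -0.64 for Idi1, -0.96 for Fdps, -0.88 for Fdft1, -0.86 for Sqle, -0.48 for Lss, -1.16 for Cyp51, -0.55 for Msmo1, -0.85 for Hsd17b7 and -0.77 for Dhcr7. In SREBP control and carriage they were -0.74 for Insig1, -0.23 for Srebf1, -0.64 for Srebf2 and -0.70 for Stard4.

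In fatty acid synthesis the interaction was -0.58 for Acaca, -0.28 for Fasn, -1.25 for Scd1, -0.85 for Scd2, -0.34 for Elovl1 and -1.33 for Fads2. In the efflux, LXR and esterification class it was 0.33 for Abcg1 and 0.26 for Nr1h2. Among the further pathway genes it was -0.79 for Tmem97, -0.61 for Npc1, -0.32 for Npc2 and -0.34 for Mbtps2, and 0.83 for Soat2. The other fatty acid genes gave -3.11 for Me1, which stayed at or under 1.504 CPM in every library, -1.30 for Elovl7, -1.10 for Acsl3 and 0.22 for Acsl4. The call of Fasn ended without TGFβ replicate 1 (adjusted p = 0.0616) or TGFβ + RA replicate 1 (0.0556), and that of Elovl1 without IL-2 + IL-15 replicate 3 (0.0632), TGFβ replicate 1 (0.0665) or TGFβ + RA replicate 3 (0.0642). Srebf1 was as marginal.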

How the results depend on the processing

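No called change of the 39 genes changed sign under any alternative. Leaving glmTreat aside, the calls kept under all alternatives were 6 of 8 in RA, 22 of 26 in TGFβ, 32 of 34 in TGFβ + RA, 28 of 32 against TGFβ, 31 of 33 against RA and 21 of 24 for the interaction. When glmTreat asked for a change beyond 1.5-fold, the genes higher and lower were 0 and 0 in RA, 1 and 7 in TGFβ, 2 and 17 in TGFβ + RA, 0 and 12 against TGFβ, 1 and 19 against RA, and 0 and 6 for the interaction. The shares of all genes higher and lower were then 1.82% and 2.73%, 4.43% and 4.32%, 7.09% and 13.6%, 2.63% and 8.4%, 6.45% and 11.4%, and 0.592% and 3.59%, in the same order. In RA, the block gave 6 higher, beside 13.3% of all genes, and the 6 libraries compared gave 3 lower, beside 10.2%. Leaving out 1 library gave 3 to 11 higher and 4 to 5 lower in RA. It gave 5 to 7 and 17 to 20 in TGFβ, and 5 to 6 and 27 to 29 in TGFβ + RA. Against TGFβ it gave 4 to 5 and 24 to 28, and against RA 5 to 8 and 26 to 26. For the interaction it gave 2 to 3 and 20 to 23. The shares of all genes over these fits were 9.31% to 16.1% higher and 10.8% to 16.3% lower in RA. They were 17.2% to 23.0% and 18.3% to 24.0% in TGFβ, and 27.3% to 31.5% and 29.2% to 33.6% in TGFβ + RA. Against TGFβ they were 15.8% to 21.7% and 19.5% to 24.5%, and against RA 24.0% to 28.8% and 27.9% to 32.7%. For the interaction they were 4.09% to 11.6% and 9.69% to 17.5%. In the other comparisons the replicate numbers did not meet the rule for pairing, though each sample matched its own number best except TGFβ + RA replicate 1 against RA, and the block moved no count past 1.5 times. Depth limits Me1, Fads3 and Nr1h3, which have few counts. CPM without TMM were 0.958 to 1.03 times those with it.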

Other observations

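Of the 16 tested genes in the further fatty acid list, 11 fell and 2 rose in TGFβ + RA against IL-2 + IL-15, beside 32.4% and 30.8% of all genes. The risers were Fads3 and Acss2, which makes acetyl-CoA from acetate. The call of Fads3 was marginal (adjusted p = 0.0494), and its libraries overlapped those of IL-2 + IL-15. Acss2 rose by 0.65 in TGFβ and 0.71 in TGFβ + RA, and was picked out after its values were seen. Acsl3, a ligase that activates fatty acids at the endoplasmic reticulum and on lipid droplets, had 14.2, 17.7 and 18.7 CPM in IL-2 + IL-15, 11.01, 14.1 and 10.3 with RA, 3.41, 5.22 and 4.85 with TGFβ and 1.11, 1.66 and 1.51 with both. It fell by 1.91 in TGFβ and 3.53 in TGFβ + RA. Acsl4, which favours polyunsaturated fats, fell by 0.55 with RA, 0.48 with TGFβ and 0.81 with both. Elovl7, an elongase, was low wherever RA was present, at 1.00, 0.49 and 1.19 CPM in RA and 0.37, 0.66 and 0.55 in TGFβ + RA, against 6.24, 6.59 and 6.82 in IL-2 + IL-15 and 11.83, 9.09 and 9.65 in TGFβ.

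Fads3, a relative of Fads2, was raised by TGFβ alone, from 0.45, 0.45 and 0.28 CPM to 3.03, 2.92 and 2.68, and was lower again in TGFβ + RA (0.85, 0.69 and 0.44). Rxra, a partner receptor of both LXR and the retinoic acid receptors, changed by -3.10 with RA, -1.01 with TGFβ and -3.52 with both, from 6.76, 6.39 and 6.72 CPM to 0.32, 0.60 and 0.74 in the last. Its level in IL-2 + IL-15 was 1.21 RPKM, where its relative Rxrb had 31.9. Rxrb was not called with RA (-0.003 ± 0.04) or with both (-0.035 ± 0.04), and fell by 0.18 with TGFβ. Nr1h3, the gene of LXRα, rose by 0.81 in TGFβ and 0.89 in TGFβ + RA and stayed at or under 3.05 CPM.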
